A study of Macaca mulatta with 12 samples.

Results

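Growth factors and the receptor tyrosine kinases that bind them were followed across the cell classes of the rhesus macaque (Macaca mulatta) amygdala. The genes were the rows of the deposited count table whose symbol is FGF, FGFR, NTRK, ERBB, NRG, IGF or PDGF followed by digits, together with PDGFA, PDGFB, PDGFC, PDGFD, PDGFRA, PDGFRB, EGFR, IGF1R and NTF3. This gave 38 of 19708 rows and 37 distinct symbols, since FGF18 had an additional row. Of the 38 rows, 35 carried the symbol itself and 3 an Ensembl identifier that a reference table pairs with NRG3, FGF5 and FGF18. KIT and ERBB3 are not analysed here.

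Growth factors are secreted or cell-bound proteins that act on receptors with a tyrosine kinase inside the cell. Ligand binding brings receptor molecules together, the kinases phosphorylate each other, and a relay through RAS and the MAP kinases or through PI3 kinase follows. In the brain, neuregulins act on ERBB4, neurotrophins on the NTRK receptors, platelet-derived growth factors (PDGFs) on PDGFRA and PDGFRB, insulin-like growth factors on IGF1R, and secreted fibroblast growth factors (FGFs) on the FGFR family. FGF11, FGF12, FGF13 and FGF14 are exceptions, as they stay inside the cell and bind voltage-gated sodium channels. PDGFRA is a classical gene of oligodendrocyte precursors, PDGFRB of the mural cells that wrap vessels, FGFR3 of astrocytes and ERBB4 of many inhibitory neurons.

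Nuclei were isolated from frozen amygdala, a group of cell masses in the temporal lobe, and the 3′ ends of their transcripts were sequenced with droplet barcoding. All 12 labelled samples, whose titles number 4 under each of 3 leading numbers, belonged to 1 group with no treatment, genotype or age in the labels, so the comparisons are between cell classes. The table held 26400 nuclei with 151526883 unique molecular identifiers (UMIs, each standing for 1 captured molecule) and a median of 5053.5 UMIs per nucleus. Barcodes fell into 3 sets of 9201, 8900 and 8299 nuclei that no label ties to an animal or a sample. The nuclei therefore counted as 1 pooled sample: there is no replicate error and no test, and every interval given is an exact 95% one for counting error alone. The 3 barcode sets show whether a direction recurred, but they may be technical, and 68 barcode sequences occurred in at least 2 of them.

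Classes were named from marker genes after clustering without the growth factor and receptor genes, so none of these genes helped to form or name a class. Of 24538 nuclei kept, 11145 were excitatory neurons, 4117 inhibitory neurons, 6017 astrocytes, 795 ependymal cells, 376 oligodendrocyte precursors, 107 committed precursors, 440 oligodendrocytes, 208 microglia, 172 mural cells and 134 endothelial cells. Another 1027 stayed unnamed. Each name means that a cluster resembles that cell type by its markers, and 3 excitatory clusters of 473, 658 and 327 nuclei had ST18, ERG or KDR, markers of other classes, among their leading genes. Excitatory neurons had a median of 7887 UMIs per nucleus, inhibitory neurons one of 5635 and microglia one of 1127.5, with between 1400.5 and 2799 in the remaining classes. Levels are UMIs of a gene per 1000000 UMIs of its class (CPM), and fewer nuclei with a transcript or less transcript per nucleus cannot be told apart by them. They are compared only within a gene, since 3′ counts were not set against transcript length.

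RNA of neuronal genes was present in every glial and vascular class. Levels of RBFOX3, SNAP25, SYT1, CELF4 and SV2B were taken as shares of those in excitatory neurons. The median share was 22.6% in astrocytes (range 5.73 to 38.4%), 19.4% in ependymal cells and 20.5% in oligodendrocyte precursors (3.78 to 47.3%). It was 12.6% in committed precursors, 20.2% in oligodendrocytes, 44.7% in microglia (24.4 to 48.5%), 30.8% in mural cells and 34.6% in endothelial cells. Other neuronal markers went beyond these ranges. In astrocytes and excitatory neurons, STMN2 stood at 107 and 146 CPM, MAP2 at 524 and 605 CPM and NRGN at 47.4 and 70.5 CPM. GRIN1, at 57.7 and 314 CPM, lay within the astrocyte range. Of the inhibitory genes, GAD1 stood at 5.67% of its inhibitory level in excitatory neurons, 8.30% in astrocytes and 18.1% in endothelial cells, and GAD2 at 1.27, 5.96 and 10.2% in the same classes. SLC32A1 stood at 10.4% in excitatory neurons and 43.8% in astrocytes, on 165 and 79 UMIs. In those classes DLX1 stood at 1.29 and 1.90% and DLX6 at 1.27 and 5.58%. SLC32A1, DLX1 and DLX6 had 3, 1 and 1 endothelial UMIs, too few for a share there. The part of such RNA in the levels below was not tested.

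The genes differed in the class where they were highest. Of the 38 rows, 32 had at least 50 UMIs over the named classes and 6 did not (IGF2, FGF8, FGF11, FGF16, FGF22 and the additional FGF18 row). The 32 were highest in inhibitory neurons in 11 cases, in astrocytes in 4, in excitatory neurons, ependymal cells, committed precursors and endothelial cells in 3 each, in oligodendrocyte precursors in 2, and in oligodendrocytes, microglia and mural cells in 1 each. No such count over all genes is set beside these numbers, so they do not show a trait particular to these genes. The highest class was the same in all 3 barcode sets for 23 genes, and its interval lay apart from that of the next class for 20. Together the 38 rows held 0.95% of all UMIs, and FGF14, ERBB4, FGF12, NTRK3 and NRG1 held 79.9% of that share.

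**Figure D1:**
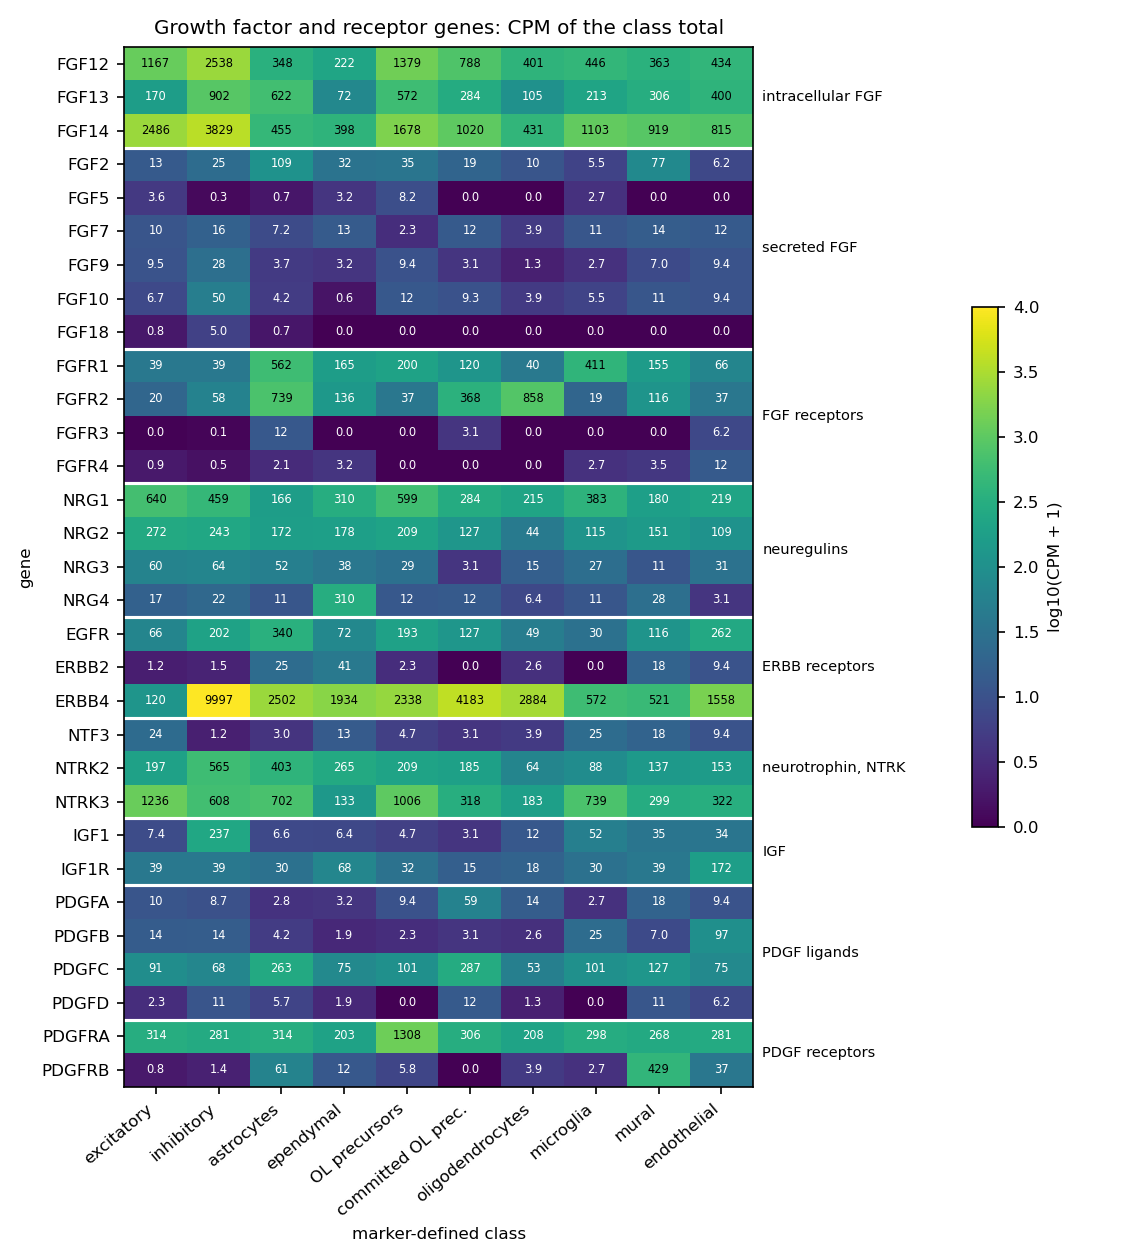
Level of 31 of the 32 genes with at least 50 UMIs (rows, grouped by family) in the 10 named classes (columns), printed as CPM of the class total and coloured by log10(CPM + 1), brighter being higher. ERBB4 is brightest in inhibitory neurons at 9997 CPM and darkest in its row in excitatory neurons at 120.5 CPM, and PDGFRB, NRG4, IGF1 and PDGFB each have 1 bright class.

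The intracellular genes FGF12, FGF13 and FGF14 were highest in inhibitory neurons and were also high in oligodendrocyte precursors. FGF14 stood at 3829 CPM (95% interval 3805 to 3854) in inhibitory neurons, 2486 CPM in excitatory neurons and 1678 CPM (1593 to 1768) in oligodendrocyte precursors. In astrocytes FGF14 stood at 455 CPM, 18.3% of its excitatory level and within the range of the 5 neuronal genes there. In oligodendrocyte precursors it was at 67.5% of the excitatory level, above each of those 5 genes. It was also above NRGN (30.4 CPM in precursors and 70.5 CPM in excitatory neurons) and GRIN1 (55.0 and 314 CPM). The neuronal markers STMN2 (102 and 146 CPM) and MAP2 (774 and 605 CPM) held a larger share. FGF12 stood at 2538 CPM in inhibitory neurons, 1379 CPM in oligodendrocyte precursors, 1167 CPM in excitatory neurons and 348 CPM in astrocytes, so the precursors lay above excitatory neurons. FGF13 differed, because astrocytes at 622 CPM (607 to 637) stood above excitatory neurons at 170.5 CPM and below inhibitory neurons at 902 CPM. A UMI of FGF13 was seen in 47.2% of astrocytes and 63.2% of excitatory neurons, and after thinning every nucleus to 1000 UMIs in 35.3% of astrocytes and 16.0% of excitatory neurons. FGF11, the other intracellular gene, had 13 UMIs in all, none of them in oligodendrocyte precursors.

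The secreted FGF genes had low counts and different sources. FGF2 was highest in astrocytes at 109 CPM (103 to 116, and 101 to 122 over the barcode sets) and next in mural cells at 77.4 CPM (48.5 to 117), whose intervals overlapped. It stood at 12.7 CPM in excitatory and 24.6 CPM in inhibitory neurons. FGF10 was highest in inhibitory neurons at 49.5 CPM, and FGF9 likewise at 28.0 CPM, with all other classes at or below 11.7 CPM for FGF10 and 9.49 CPM for FGF9. FGF18 had 123 UMIs in inhibitory neurons (4.96 CPM), 75 in excitatory neurons (0.795 CPM) and 8 in astrocytes, and none in the other classes, which had fewer UMIs. FGF5 was at 8.19 CPM, on 7 UMIs, in oligodendrocyte precursors and at 3.56 CPM in excitatory neurons, and these intervals overlapped. FGF7 ranged from 2.34 CPM in oligodendrocyte precursors to 16.4 CPM in inhibitory neurons.

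FGFR1, FGFR2 and FGFR3 were each highest in a glial class. FGFR1 stood at 562 CPM (548 to 577) in astrocytes, 411 CPM (347 to 482) in microglia, 39.4 CPM in excitatory and 39.0 CPM in inhibitory neurons. FGFR2 was highest in oligodendrocytes at 858 CPM (794 to 926, and 769 to 947 over the barcode sets), with astrocytes next at 739 CPM and committed precursors at 368 CPM. In oligodendrocyte precursors FGFR2 stood at 37.4 CPM (25.6 to 52.8), below both committed precursors and oligodendrocytes. Astrocyte markers summed to 2623 CPM in committed precursors, 1214 CPM in oligodendrocyte precursors and 792 CPM in oligodendrocytes. The part of astrocyte RNA in the FGFR2 level of committed precursors was not tested. FGFR3 was mainly seen in astrocytes, which held 125 UMIs (11.7 CPM), beside 2 in endothelial cells, 4 in excitatory and 3 in inhibitory neurons and 1 in committed precursors. The 2 endothelial UMIs gave 6.25 CPM, with an interval (0.756 to 22.6) that overlapped that of astrocytes. FGFR4 stood at 12.5 CPM on 4 UMIs in endothelial cells and at most 3.52 CPM elsewhere.

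Among the neuregulin receptor genes, ERBB4 was highest in inhibitory neurons and lowest in excitatory neurons. ERBB4 stood at 9997 CPM in inhibitory neurons, 4183 in committed precursors, 2884 in oligodendrocytes, 2502 in astrocytes, 2338 in oligodendrocyte precursors, 1934 in ependymal cells, 1558 in endothelial cells, 572 in microglia, 521 in mural cells and 120.5 in excitatory neurons. The intervals of microglia (497 to 655) and mural cells (440.4 to 612) overlapped, and those of the other neighbours in this order did not. As a share of the inhibitory level, ERBB4 was at 1.21% in excitatory neurons, 5.72% in microglia and 5.21% in mural cells, below both GAD1 (5.67, 16.6 and 6.78%) and GAD2 (1.27, 7.68 and 8.24%) in those classes. In endothelial cells at 15.6% and oligodendrocyte precursors at 23.4% it lay between GAD2 (10.2 and 5.20%) and GAD1 (18.1 and 25.4%). In astrocytes at 25.0% and oligodendrocytes at 28.8% it lay above GAD1 (8.30 and 7.79%) and GAD2 (5.96 and 3.01%). It lay below SLC32A1 in both, which was at 43.8% on 79 UMIs in astrocytes and 38.25% on 5 UMIs in oligodendrocytes. DLX1 and DLX6 had 1 and 2 UMIs in astrocytes and 0 and 1 in oligodendrocytes. In committed precursors ERBB4, at 41.8%, lay above GAD1 (27.2%), GAD2 (2.17%) and SLC32A1 (36.7% on 2 UMIs). In ependymal cells, at 19.4%, it lay above GAD1 (8.30%) and GAD2 (5.55%) and below SLC32A1 (30.5% on 8 UMIs). DLX1 and DLX6 had 1 and 0 UMIs in committed precursors and 1 each in ependymal cells.

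Among the ligands, NRG1 stood at 639.8 CPM (635 to 645) in excitatory neurons, 599 CPM (548 to 653) in oligodendrocyte precursors and 459 CPM in inhibitory neurons, with overlapping intervals for the first pair. Astrocytes, at 166 CPM, held 26.0% of the excitatory level, within the range of the neuronal genes there. NRG2 ranged from 43.7 CPM in oligodendrocytes to 272 CPM in excitatory neurons. NRG3 stood at 59.7 CPM in excitatory and 64.3 CPM in inhibitory neurons, and its intervals in both overlapped.

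NRG4 stood out in ependymal cells, ciliated cells that line the ventricles, with 309.7 CPM (283 to 339) and 292, 321 and 317 CPM in barcode sets 1, 2 and 3. All other classes lay between 3.12 and 28.2 CPM. A UMI of NRG4 was seen in 41.4% of ependymal cells and 1.75% of astrocytes. ERBB2, the partner receptor that binds no known ligand itself, was likewise highest in ependymal cells at 41.0 CPM (31.6 to 52.4) and next in astrocytes at 24.9 CPM (22.0 to 28.1), with 1.16 CPM in excitatory and 1.49 CPM in inhibitory neurons. EGFR, the receptor of EGF and TGFA, stood at 340.2 CPM in astrocytes, 262 CPM (209 to 325) in endothelial cells, 202 CPM in inhibitory neurons and 193 CPM (165 to 225) in oligodendrocyte precursors, and the interval of oligodendrocyte precursors overlapped those of endothelial cells and inhibitory neurons.

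Of the neurotrophin genes, NTF3 was higher in excitatory than in inhibitory neurons, while its receptor gene NTRK3 was read widely. NTF3 stood at 24.4 CPM (23.4 to 25.4) in excitatory neurons, 1.25 CPM (0.849 to 1.77) in inhibitory neurons and 24.6 CPM in microglia, where 9 UMIs gave an interval of 11.3 to 46.8. NTRK3 stood at 1236 CPM in excitatory neurons, 1006 in oligodendrocyte precursors, 739 in microglia, 702 in astrocytes and 608 in inhibitory neurons. The microglial value was 443 CPM when every nucleus was thinned to 1000 UMIs. NTRK2, the receptor of BDNF, was highest in inhibitory neurons at 565 CPM, next in astrocytes at 403 CPM and then in ependymal cells at 265 CPM, with 197 CPM in excitatory neurons. The ligand gene BDNF stood at 90.5 CPM in excitatory neurons and 8.47 CPM in inhibitory neurons.

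IGF1 was highest in inhibitory neurons at 237 CPM (231 to 243), with 227, 240.2 and 245 CPM in barcode sets 1, 2 and 3. Microglia came next at 52.0 CPM (31.3 to 81.2), on 19 UMIs, followed by mural cells at 35.2 CPM and endothelial cells at 34.3 CPM, whose intervals overlapped that of microglia. Excitatory neurons stood at 7.41 CPM and astrocytes at 6.62 CPM. A UMI of IGF1 was seen in 4.89% of excitatory and 59.8% of inhibitory nuclei, and after thinning in 0.673% of excitatory and 19.7% of inhibitory nuclei. IGF2 had 45 UMIs in the named classes, of which 14 were in mural cells (49.3 CPM, 26.9 to 82.7) and 12 in endothelial cells (37.5 CPM, 19.4 to 65.5). The receptor gene IGF1R was highest in endothelial cells at 172 CPM (129 to 224), above ependymal cells at 68.0 CPM (55.6 to 82.2).

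In the PDGF family, the ligand gene PDGFB and the receptor genes PDGFRA and PDGFRB each peaked in a different class. For the ligand genes PDGFA, PDGFC and PDGFD the intervals of the highest class and the next overlapped. PDGFRB, the receptor of PDGFB and PDGFD, stood at 429 CPM (357 to 513) in mural cells, 60.8 CPM (56.3 to 65.7) in astrocytes and 37.5 CPM (19.4 to 65.5) in endothelial cells. PDGFB stood at 96.8 CPM (65.8 to 137) in endothelial cells, on 31 UMIs, and at most 24.6 CPM elsewhere. PDGFD was at 2.29 CPM in excitatory and 10.5 CPM in inhibitory neurons, with 61 UMIs in astrocytes and at most 4 in any other class.

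PDGFRA, the receptor of PDGFA and PDGFC, stood at 1308 CPM (1232 to 1386) in oligodendrocyte precursors, with 1254, 1459 and 1199.5 CPM in barcode sets 1, 2 and 3. In all other classes it lay between 203 and 314 CPM, including 314 CPM in excitatory neurons, 314 CPM in astrocytes and 306 CPM in committed precursors. In astrocytes PDGFRA was at 99.9% of its excitatory level, where the 5 neuronal genes reached at most 38.4%. The neuronal markers STMN2, NRGN and MAP2 lay above those 5 there, MAP2 at 524 CPM beside 605 CPM in excitatory neurons. The part of neuronal RNA in the astrocyte level of PDGFRA was not tested. A UMI was seen in 69.8% of oligodendrocyte precursors after thinning, and in 27.4% of excitatory neurons and 25.7% of astrocytes. PDGFA was highest in committed precursors at 58.7 CPM (35.3 to 91.7), on 19 UMIs, with an interval that overlapped that of mural cells at 17.6 CPM. PDGFC stood at 287 CPM (232 to 352) in committed precursors and 263 CPM (254 to 273) in astrocytes, whose intervals overlapped.

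**Figure D2:**
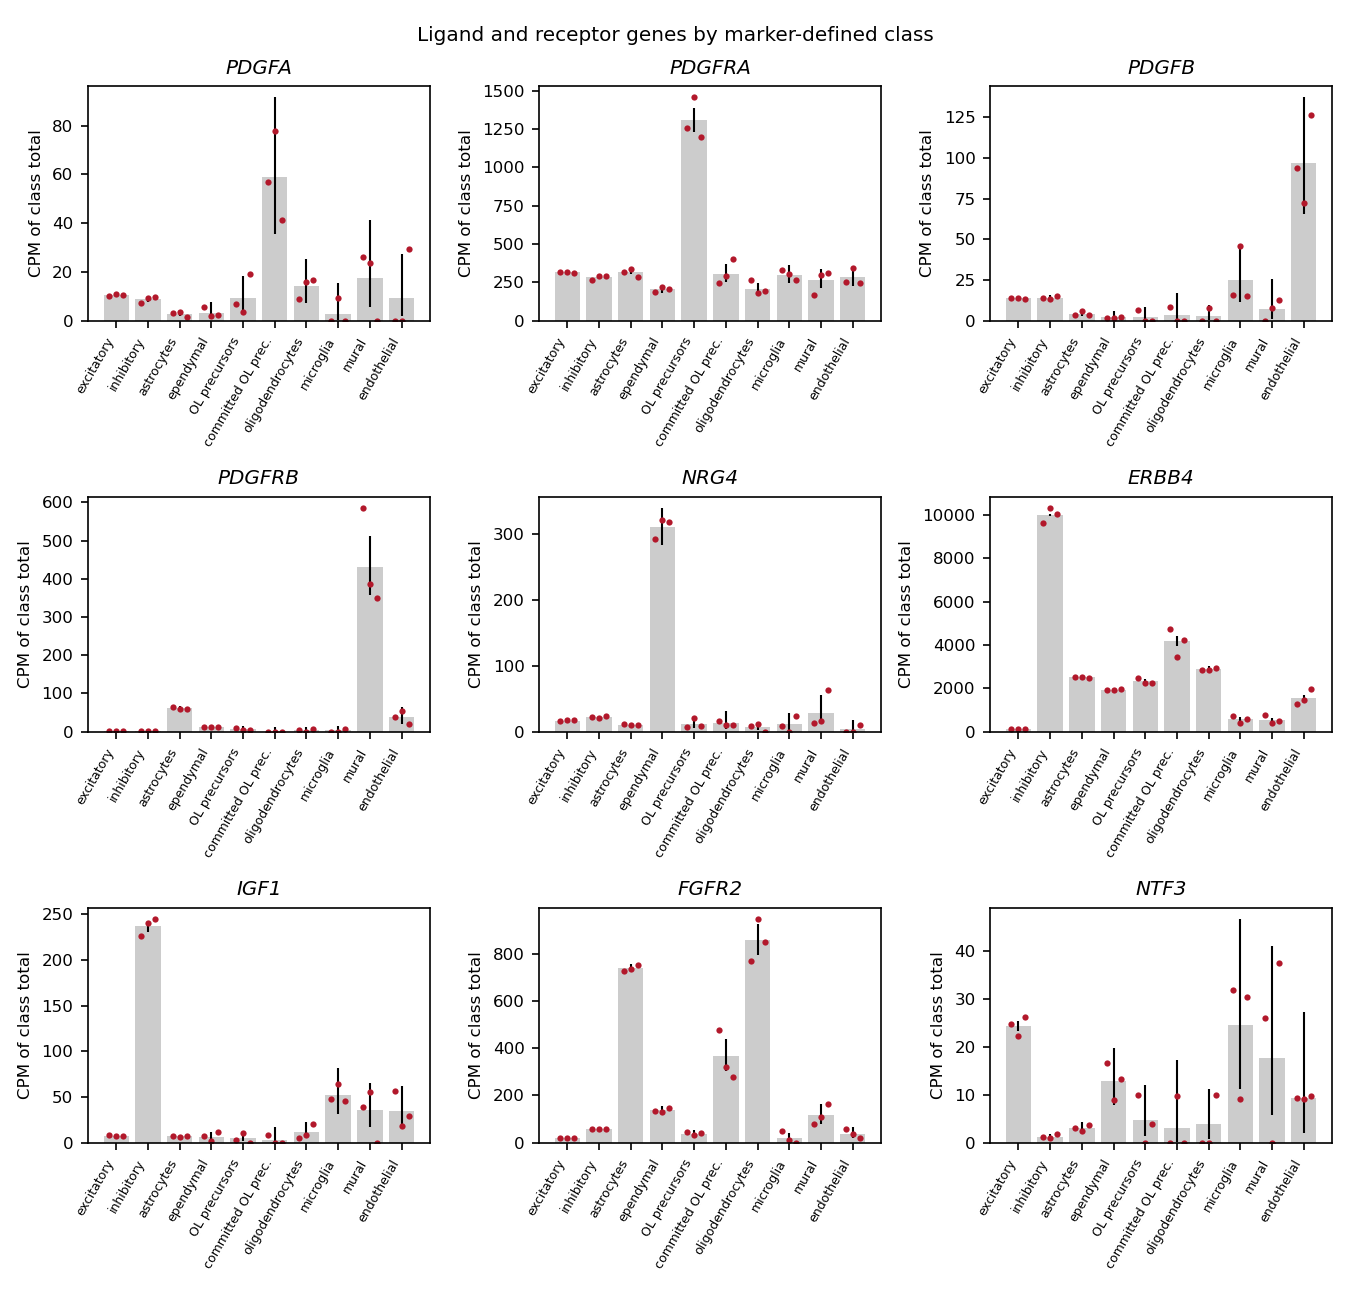
CPM of 9 ligand and receptor genes in the 10 named classes. Bars give the pooled level, black lines its exact 95% Poisson interval and red points the 3 barcode sets. PDGFRB peaks in mural cells at 429 CPM and PDGFB in endothelial cells at 96.8 CPM, while PDGFRA lies between 203 and 314 CPM in every class besides its peak of 1308 CPM in oligodendrocyte precursors.

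Excitatory neurons, which release glutamate, were then set against inhibitory neurons, which release GABA. Genes entered this comparison with 50 UMIs or more on 1 side, provided that at the higher level both sides would have reached 10, and a call needed a 2-fold difference. Of 31 genes measured, 3 reached 2-fold or more in favour of excitatory neurons, beside 8.69% of all genes, and 11 were at least 2-fold lower there, beside 8.36%. Their median log2 fold was −0.40, and that of all 14903 genes measured was −0.10. The direction of every call recurred in each of the 3 barcode sets. Without barcode set 3 the number higher was 5.

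ERBB4 differed most, with 120.5 CPM in excitatory neurons and 9997 CPM in inhibitory neurons, a log2 fold of −6.37 (−6.40 to −6.35). IGF1 came next at −5.00 (−5.11 to −4.89), on 7.41 CPM in excitatory and 237 CPM in inhibitory neurons. The secreted ligands FGF10 (−2.88), FGF18 (−2.64), PDGFD (−2.20) and FGF9 (−1.56) were also lower, as were the intracellular genes FGF13 (−2.40) and FGF12 (−1.12). Of the receptors, EGFR (−1.62), FGFR2 (−1.53) and NTRK2 (−1.52) were lower in excitatory neurons. PDGFD was at −2.79 when nuclei were thinned.

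NTF3, FGF5 and NTRK3 were higher in excitatory neurons. NTF3 had 2301 UMIs in excitatory neurons and 31 in inhibitory neurons, a log2 fold of 4.29 (3.78 to 4.85). That fold was 6.11 after thinning, 3.55 with presumed doublets kept and 2.76 without the large excitatory cluster that expresses PROX1. FGF5, on 336 excitatory and 7 inhibitory UMIs, was also higher (log2 3.66, 2.60 to 4.98). NTRK3, the receptor of NTF3, was higher by 1.02 (1.00 to 1.05), with 1236 CPM in excitatory and 608 CPM in inhibitory neurons. The other genes measured lay within 2-fold, among them NRG1 (0.48), PDGFRA (0.16), FGFR1 (0.01) and IGF1R (−0.02).

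**Figure D3:**
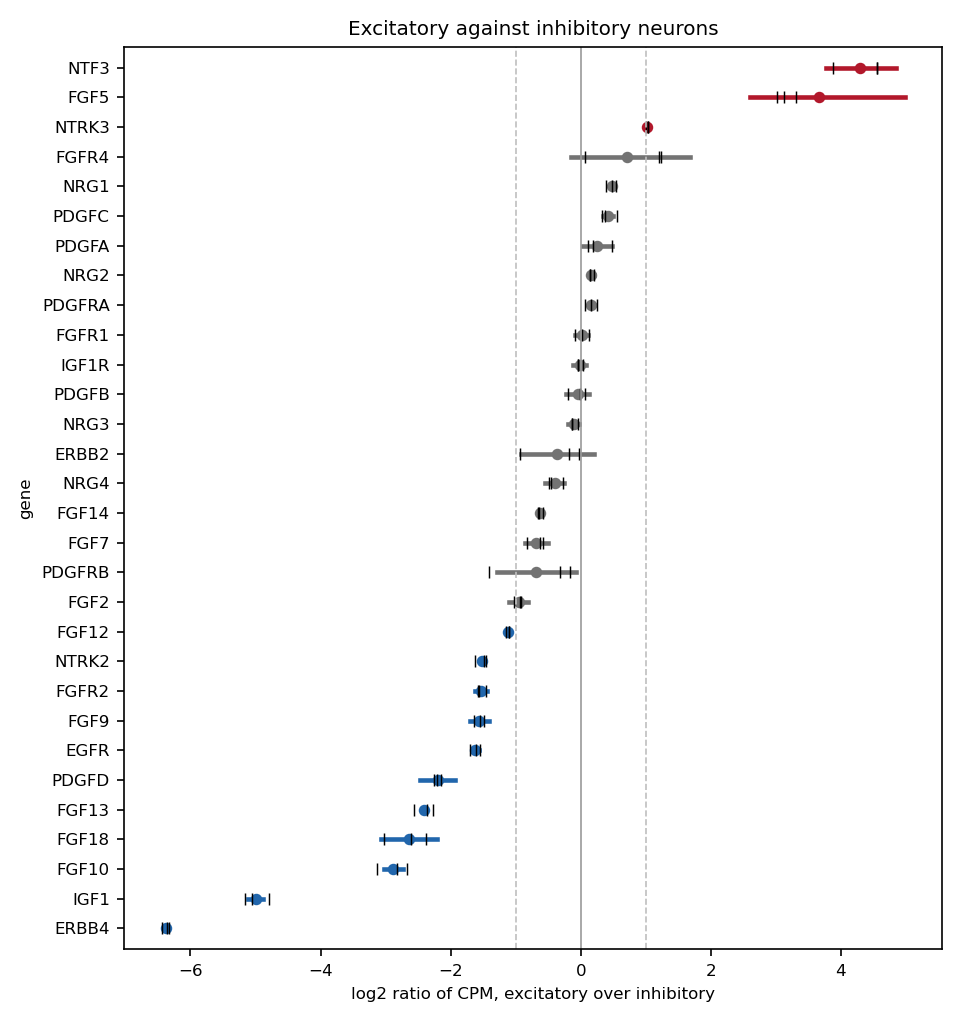
Log2 ratio of CPM, excitatory over inhibitory neurons, for 30 of the 31 genes measured. Points give the pooled value, coloured lines its exact 95% interval and black ticks the 3 barcode sets. Red marks genes at least 2-fold higher and blue at least 2-fold lower, past the dashed lines: ERBB4 and IGF1 lie at −6.37 and −5.00, and NTF3 and FGF5 at 4.29 and 3.66.

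Partners of these pathways were counted by list, beside the 8.69% of all genes higher and 8.36% lower and their median of −0.10. Of 8 measured genes of neurotrophins and their co-receptors, BDNF and SORCS2, a sorting receptor of the VPS10 family, were higher in excitatory neurons and 4 were lower, among them SORCS1, SORCS3 and SH2B2, with a median log2 fold of −0.78. Of 11 EGF family ligands and ERBB modulators, TGFA was higher (33.2 CPM in excitatory and 8.67 CPM in inhibitory neurons) and EREG, AREG, EPGN and LRIG1 were lower, with a median of −0.31. Of 17 genes of FGF feedback and co-reception, the transcription factor gene ETV1 was higher and SPRY4, SPRED3 and ETV4 were lower (median −0.39). Of 10 insulin-like growth factor partners, IGFBP4, IGFBP7 and PAPPA were lower (median −0.81), and of 6 PDGF and KIT partners NRP1 and GRB14 were higher (median 0.46). Of 17 genes of the RAS and MAP kinase relay, GAB1 alone was called, and it was lower (median −0.28).

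The largest excitatory cluster held 5084 nuclei, 45.6% of the class, and had the transcription factor gene PROX1 at 264 CPM, beside at most 4.86 CPM in the other excitatory clusters apart from 1 of 126 nuclei at 433 CPM. PROX1 marks granule cells of the nearby dentate gyrus among other neurons, and the files do not tell whether these nuclei are amygdalar. It held 1758 UMIs of NTF3 at 58.0 CPM, and the other excitatory nuclei held 543 at 8.48 CPM. FGF5 stood at 1.16 CPM in the cluster and 4.70 CPM in the other excitatory nuclei, IGF1 at 2.51 and 9.73 CPM, and FGFR1 at 17.9 and 49.6 CPM. So NTF3 was at least 2-fold higher there and FGF5, IGF1 and FGFR1 at least 2-fold lower. NTRK3 (1709.7 CPM in the cluster and 1012 CPM in the others), NRG1 (773 and 577 CPM) and PDGFRA (345 and 299.7 CPM) differed by less than 2-fold.

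Oligodendrocyte precursors, the dividing glia that give rise to myelin-forming cells, were set against oligodendrocytes. Of 13 genes measured, 10 were at least 2-fold higher in precursors, beside 18.1% of all genes, and 1 at least 2-fold lower, beside 14.6%. Their median log2 fold was 1.96, and that of the 4050 genes measured was 0.02. PDGFRA had the largest rise among the 13, with 1308 CPM in precursors and 208 CPM in oligodendrocytes (log2 2.65, 2.41 to 2.90). The receptor genes FGFR1 (2.33, 1.77 to 2.93) and FGFR2 (−4.52, −5.08 to −4.01) differed in opposite directions. FGFR2 stood at 37.4 CPM in precursors and 858 CPM in oligodendrocytes, with committed precursors between both at 368 CPM. The log2 fold of FGFR1 was 2.49, 1.29 and 3.66 in barcode sets 1, 2 and 3, and 3.03 without set 2.

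The other genes higher in precursors were NTRK3 (log2 2.46), FGF13 (2.44), NRG2 (2.26), EGFR (1.98), FGF14 (1.96), FGF12 (1.78), NTRK2 (1.70) and NRG1 (1.48). NRG1 stood at 599 CPM in precursors and 215 CPM in oligodendrocytes, and NTRK3 at 1006 CPM in precursors and 183 CPM in oligodendrocytes. ERBB4 was within 2-fold, with 2338 CPM in precursors and 2884 CPM in oligodendrocytes (−0.30, −0.39 to −0.22). PDGFC also lay within 2-fold at 0.93. All 11 calls had the same direction in the 3 barcode sets.

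Of the 18 FGF co-receptor, binding and feedback genes present, 5 were measured between precursors and oligodendrocytes, where 18.1% of all genes were higher and 14.6% lower. SPRY4, which encodes an inhibitor that the pathway induces, and ETV1, ETV5 and ANOS1 were at least 2-fold higher in precursors. SPRY4 stood at 206 CPM in precursors and 10.3 CPM in oligodendrocytes, and ETV5 at 223 and 33.4 CPM. All 3 neurotrophin partners measured, SORCS1, SORCS3 and SHC3, were higher, SORCS1 with 687 CPM in precursors and 28.3 CPM in oligodendrocytes. Of 4 EGF family genes measured the EGFR ligand gene TGFA was higher, with 171 CPM in precursors and 30.9 CPM in oligodendrocytes. Of 3 PDGF and KIT partners LRP1 was higher. The adaptor genes GAB1 and GAB2 were lower among 12 relay genes, GAB1 with 320.5 CPM in precursors and 1403 CPM in oligodendrocytes.

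Mural cells, the smooth muscle cells and pericytes of vessels, were set against endothelial cells, which line them. Of 10 genes measured, PDGFRB was at least 2-fold higher in mural cells, beside 14.2% of all genes, and IGF1R, ERBB4 and EGFR were at least 2-fold lower, beside 18.1%. PDGFRB had 122 UMIs in mural and 12 in endothelial cells (log2 3.52, 2.66 to 4.51), with 585, 385 and 350.1 CPM in mural and 37.4, 54.2 and 19.5 CPM in endothelial cells of barcode sets 1, 2 and 3. IGF1R stood at 38.7 CPM in mural and 172 CPM in endothelial cells (−2.15, −3.23 to −1.20), and EGFR at 116 and 262 CPM (−1.18). ERBB4 stood at 521 CPM in mural and 1558 CPM in endothelial cells (−1.58), but its fold was −0.84 after thinning, −0.85 as a mean over nuclei and −0.53 with all genes open to clustering, which ended the call. Inhibitory markers were detected in 5 of 8 cases in mural cells (348 CPM summed) and in 8 of 8 in endothelial cells (1299 CPM summed). ADARB2 held 162 CPM of the mural and 1015 CPM of the endothelial sum, and RBFOX3, also a pan-neuronal marker, 123 and 131 CPM. GAD1 stood at 24.6 CPM in mural and 65.6 CPM in endothelial cells, and GAD2 at 35.2 and 43.7 CPM. The part of inhibitory RNA in the ERBB4 level was not tested. Without barcode set 1 the count lower was 1 and after thinning 0, since IGF1R and EGFR then had fewer than 50 UMIs on either side. IGF1R still stood at 27.4 CPM in mural and 219 CPM in endothelial cells after thinning, on 4 and 25 UMIs. Its log2 fold was −2.11, −2.58 and −1.81 without sets 1, 2 and 3, below the minimum of UMIs each time. EGFR was at −0.67 after thinning and −0.83 without set 1.

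PDGFB fell short of the UMIs needed for that comparison, with 2 in mural and 31 in endothelial cells. Its levels of 7.04 CPM (0.853 to 25.4) in mural and 96.8 CPM (65.8 to 137) in endothelial cells had intervals apart from each other. Fibroblast markers were detected in 5 of 5 cases in the mural class (619 CPM summed) and in 4 of 5 in endothelial cells (25.0 CPM summed), and their part was not tested. Of the pathway partners, SPRY1 (194 CPM in mural and 31.2 CPM in endothelial cells) and LRP1 (197 and 68.7 CPM) were among those higher in mural cells. The insulin receptor gene INSR was lower, with 45.8 CPM in mural and 209 CPM in endothelial cells.

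**Figure D4:**
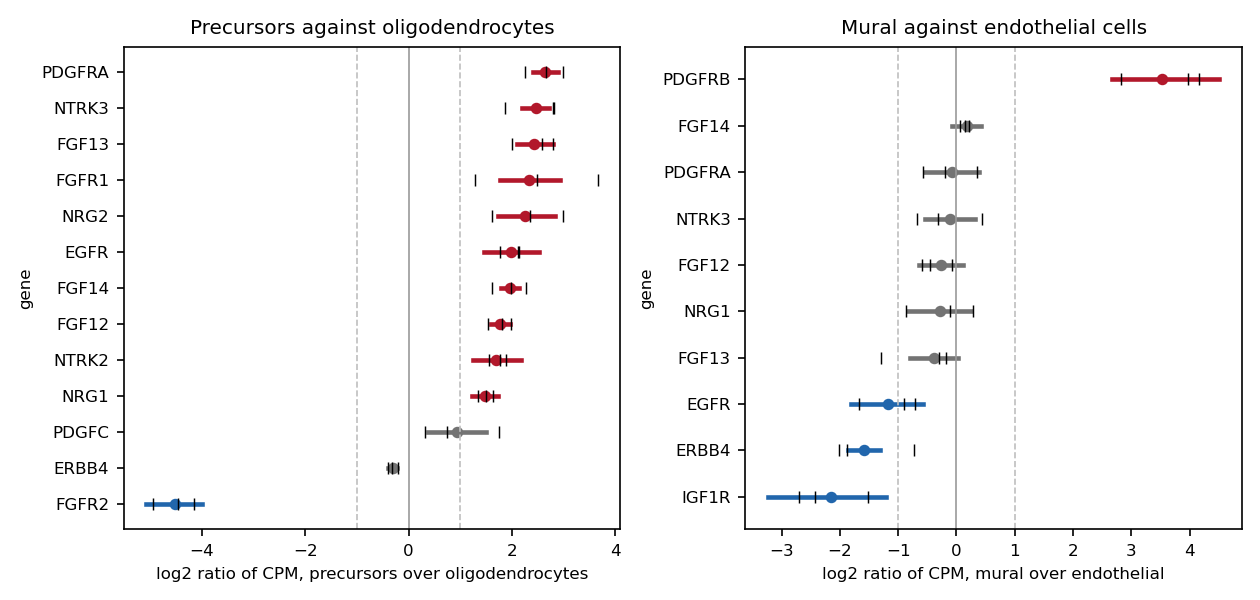
Log2 ratio of CPM for oligodendrocyte precursors over oligodendrocytes (left, 13 genes) and mural over endothelial cells (right, 10 genes). Points, coloured lines and black ticks give the pooled value, its exact 95% interval and the 3 barcode sets, and dashed lines mark 2-fold. FGFR2 at −4.52 is the gene lower in precursors, and PDGFRB at 3.52 the gene higher in mural cells.

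Astrocytes were set against the mean CPM of the other 9 classes. Of 30 genes measured, 7 were at least 2-fold higher, beside 7.62% of all genes, and 11 at least 2-fold lower, beside 17.2%. Those higher were the receptor genes FGFR3 (log2 3.47), FGFR1 (2.04), FGFR2 (2.01), ERBB2 (1.57) and EGFR (1.46) and the ligand genes FGF2 (2.15) and PDGFC (1.28). FGFR1 stood at 562 CPM in astrocytes and 137 CPM in the mean of the others, FGFR2 at 739 and 183 CPM, and EGFR at 340.2 and 124 CPM. The fold of FGFR3, on 125 UMIs in astrocytes and 10 in the others, was 4.39 without barcode set 1 and 2.56 after thinning.

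Those lower in astrocytes were the ligand genes IGF1 (−2.72), PDGFA (−2.41), PDGFB (−2.14), NRG4 (−2.14), NTF3 (−1.92), FGF10 (−1.50), FGF5 (−1.42), NRG1 (−1.14) and FGF9 (−1.13) and the intracellular FGF14 (−1.63) and FGF12 (−1.30). With the class highest in each gene left out of the mean, 5 were lower. NRG4 was then at −0.38, so its call rested on ependymal cells, and FGF12 (−0.90), FGF5 (−0.71), FGF10 (−0.78), NRG1 and FGF9 (−0.61) were also short of 2-fold. The number lower was 4 when the neuronal classes were left out of the mean, where IGF1 was at −1.67. FGF9 was at −0.08 after thinning, which ended its call. Of 17 FGF pathway partners measured, SPRY2, SPRED2, ETV4, IL17RD and ANOS1 were higher in astrocytes and KL and SPRY4 lower, with a median of 0.44 beside −0.11 for all genes. LRIG1, a negative regulator of ERBB receptors, stood at 595 CPM in astrocytes and at most 215 CPM in any other class.

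Ependymal cells had 2 of 26 measured genes at least 2-fold higher than the mean of the other classes, beside 13.3% of all genes, and 11 at least 2-fold lower, beside 18.1%. NRG4 was higher by 4.52 (309.7 CPM in ependymal cells and 13.5 CPM in the mean of the others) and ERBB2 by 2.64 (41.0 and 6.60 CPM). The 11 lower were FGF10, PDGFB, IGF1, FGF13, PDGFRB, PDGFA, NTRK3, FGF12, FGF14, FGF9 and EGFR, with log2 folds between −4.26 and −1.10, the lowest resting on 1 UMI of FGF10. The call of PDGFRB rested on mural cells: without them the mean was 14.1 CPM, beside 11.5 CPM in ependymal cells (−0.29). Without its highest class EGFR (−0.86) was also short of 2-fold, and FGF9 (−0.85) no longer met the minimum of UMIs. With presumed doublets kept 6 were lower, and FGF12 (−0.96), NTRK3 (−0.81), IGF1 (−0.95) and FGF14 (−0.76) were among those short of 2-fold. Of 14 FGF pathway partners measured, 8 were lower in ependymal cells and none higher, among them SPRY1, SPRY2, SPRY4 and DUSP6.

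Microglia, the macrophages of the brain, had 1 of 19 measured genes at least 2-fold higher than the mean of the other classes, beside 11.8% of all genes, and 7 at least 2-fold lower, beside 13.5%. The gene higher was FGFR1, at 411 CPM in microglia and 154 CPM in the mean of the others (log2 1.41), with 399, 448 and 389.6 CPM in microglia of barcode sets 1, 2 and 3. A UMI of FGFR1 was seen in 46.2% of microglia and 22.6% of excitatory neurons, and after thinning in 37.9% of microglia and 3.29% of excitatory neurons. IGF1, at 52.0 CPM in microglia and 38.5 CPM in the mean of the others (log2 0.43), was not called. That mean includes inhibitory neurons at 237 CPM, while every other class in it was at most 35.2 CPM. Without the highest other class of each gene, 2 genes were higher. Those lower were PDGFRB, FGFR2, FGF2, EGFR, ERBB4, NRG4 and NTRK2, of which PDGFRB, FGF2 and NRG4 rested on 1, 2 and 4 microglial UMIs. NRG4 was at −0.34 without ependymal cells in the mean and PDGFRB at −2.48 without mural cells, and neither then met the minimum of UMIs, nor did FGF2 (−2.31) without astrocytes. FGFR2 was at −3.78 and at −5.97 without barcode set 1, and EGFR at −2.40 and at −3.67 without barcode set 3. In the relay list of 14 genes measured, GRB2, MAP2K1 and GAB2 were higher in microglia and GAB1 lower.

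Within the inhibitory neurons, 14 sub-clusters were formed without the growth factor and receptor genes, and each was set against the mean of the others. Of 25 genes measured, 14 exceeded that mean 2-fold or more in some sub-cluster, beside 22.3% of all genes. Sub-cluster I5, led by BCAM, MYH11 and FCRL3 and holding ADARB2 and RELN, had EGFR at 930.0 CPM (886 to 975) and the mean of the others 173 CPM, a 5.37-fold difference. It also had PDGFD at 38.3 CPM (5.64-fold, with 24.4 to 47.0 CPM over the barcode sets) and FGF14 at 7692 CPM (2.23-fold). FGF18 was highest in I7, led by PRKCQ, IL7 and WNT3, at 25.1 CPM there and 3.19 CPM in the others (7.85-fold, on 47 UMIs).

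Other inhibitory sub-clusters differed in intracellular FGFs, ligands and receptors. FGF13 stood at 3044 CPM in the 151 nuclei of I13, led by SFTA3 and DRD3, 4.52-fold above the others, with 2948 to 3088 CPM over the barcode sets. PDGFC stood at 223 CPM in I8, led by MME and POSTN (3.43-fold). FGF10 stood at 153 CPM in the 72 nuclei of I14 (3.28-fold, on 50 UMIs), and FGF9 at 72.4 CPM in I11 (3.06-fold). The receptor genes FGFR2 (139 CPM, 2.74-fold) and FGFR1 (88.0 CPM, 2.37-fold) were both higher in I6, led by SCGN. IGF1 stood at 469.6 CPM in I2, led by SLC17A8 and SYT6, 2.25-fold above the mean of 208 CPM in the others. PDGFA stood at 17.8 CPM in I10, led by PLBD1 (2.36-fold, on 25 UMIs).

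Within the excitatory neurons, 15 of 31 measured genes exceeded the mean of the others 2-fold or more somewhere among 15 sub-clusters, beside 27.7% of all genes. FGF10 stood at 41.1 CPM (35.9 to 46.9) in E10, led by PTH1R, FA2H and LEF1, and 5.04 CPM in the others (8.17-fold). FGF5 stood at 14.3 CPM in E8, led by CD40 and SLC26A7 (6.03-fold), together with FGF2 at 36.4 CPM (3.21-fold). IGF1 stood at 29.9 CPM in E4, led by BMPR1B (5.91-fold), below its 237 CPM in inhibitory neurons. The lowest barcode set was at 34.1 CPM for FGF10 in E10, 13.1 CPM for FGF5 in E8 and 28.3 CPM for IGF1 in E4, all above the pooled means of the other sub-clusters.

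NTF3 was not limited to the large PROX1 cluster. E15, of 72 nuclei and led by HTR1F, had it at 143 CPM (114 to 177), 5.73-fold above the others, and none of these nuclei came from that cluster. NRG1 was 3.04-fold higher there at 2446 CPM. FGF13 stood at 638 CPM in E7 (3.80-fold), of whose 647 nuclei 80.1% came from the large PROX1 cluster. PDGFC stood at 239 CPM in E11, led by OPRM1 and VDR (3.12-fold), and FGF9 at 29.2 CPM in E12, led by KDR (3.12-fold). E14, with FNDC1 among its leading genes, had NRG4 at 51.4 CPM (2.75-fold) and EGFR at 184 CPM (2.74-fold). The median doublet score was 0.0817 in E15, 0.0791 in E14 and at most 0.0657 in the other excitatory sub-clusters. The part of doublets in these levels was not tested.

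**Figure D5:**
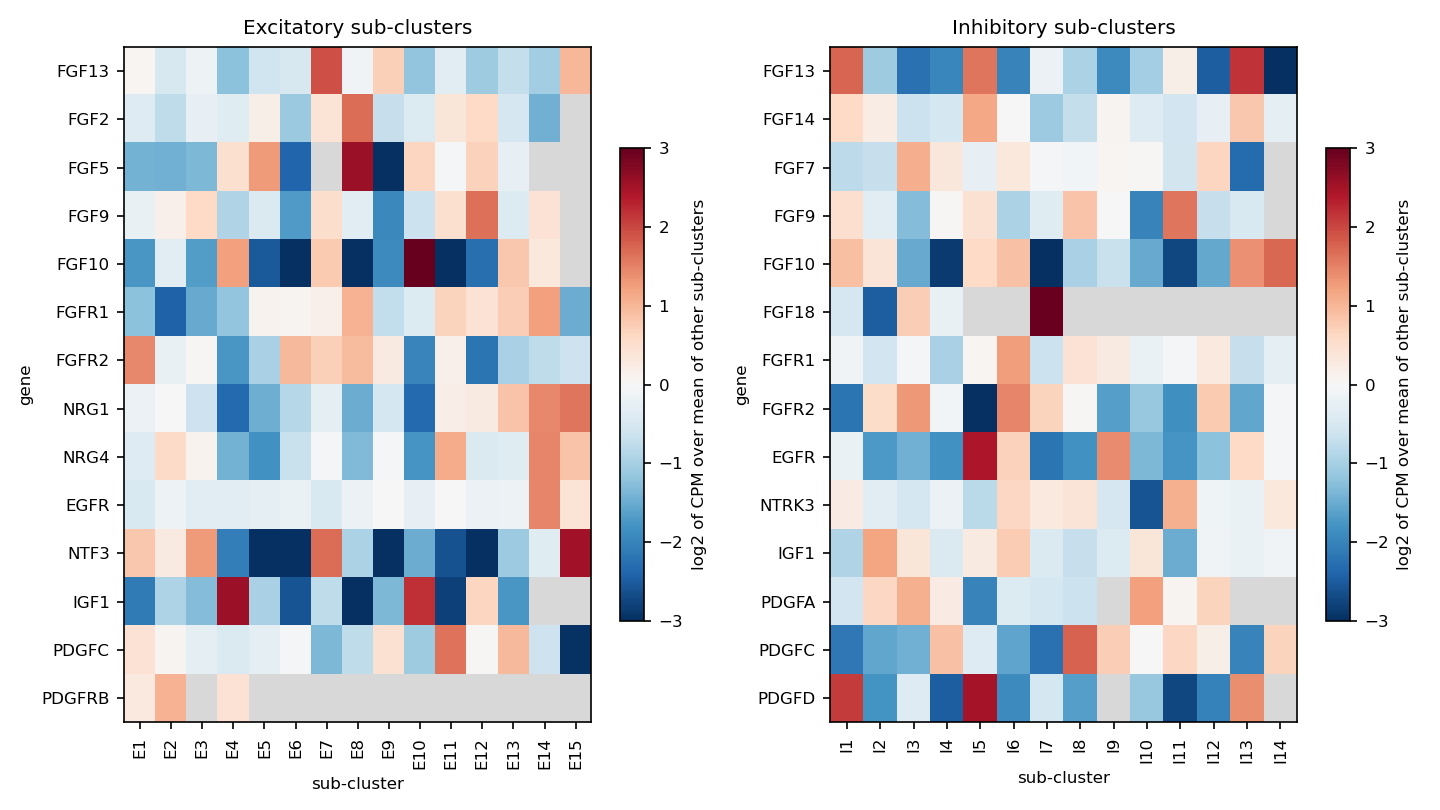
Log2 of the CPM of a sub-cluster over the mean of the other sub-clusters, for genes at least 2-fold higher in at least 1 excitatory (left, 15 sub-clusters) or inhibitory sub-cluster (right, 14). Red is higher, blue lower, and grey marks pairs that were not measured or had no UMI. The deepest red falls on FGF10 in E10 (8.17-fold) and FGF18 in I7 (7.85-fold), and EGFR and PDGFD are both red in I5.

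In astrocytes, 3 of 20 measured genes exceeded the mean of the others 2-fold or more somewhere among 5 sub-clusters, beside 9.76% of all genes. FGFR3 stood at 16.0 CPM in the 2664 nuclei of A2, 3.89-fold above the mean of 4.10 CPM in the others. A2 held 78 of the 125 UMIs of FGFR3 in astrocytes. That mean gives the small A3, A4 and A5, of 284, 276 and 94 nuclei, the same weight as A1, of 2699 nuclei. The fold therefore does not compare A2 with A1 alone. NRG1 reached 871 CPM (781 to 968) in A5, of 94 nuclei, and 167 CPM in the others (5.23-fold). A5 was led by ST8SIA2 and SEMA3C, held the neuronal gene RBFOX3 at 218 CPM and had a median doublet score of 0.0927 beside 0.0634 in the whole class, and the part of neuronal RNA in its NRG1 level was not tested. NRG4 in A3, at 24.1 CPM (2.61-fold), rested on 13 UMIs.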

How the data were processed

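Single-nucleus libraries of frozen macaque amygdala were made with a droplet kit for 3′ ends, named as version 2 in the labels' protocols. The submitters' processing notes name fastp, Cell Ranger 3.0.0 and the build GRCh38, whereas the identifiers are macaque Ensembl ones. The strand setting of the counting is not given in the sources used here. The deposited table holds raw UMI counts per gene and nucleus from the authors, whole numbers from 0 to 705. The series' design text speaks of 3 samples and the labels list 12; neither maps barcodes to samples, so all nuclei were 1 pool and no test was made. Of 5142 rows with an Ensembl identifier, 851 were given a symbol from a reference table.

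Scrublet-style scores (scanpy 1.11.5) were used to remove presumed doublets, 0.8% per 1000 nuclei of a barcode set, 1862 in all. After leaving out 122 growth factor, receptor and pathway genes, 2000 variable genes, 30 principal components, 15 neighbours and Leiden clustering at resolution 0.5 gave 22 clusters, some split further. Clusters were named by the mean log2 ratio of their markers (112 of 121 present; above 2.5, leading by at least 1, at least 3 markers detected), by GAD1 and GAD2 or by SLC17A7, SV2B and RBFOX3 for neurons. Clusters with a median doublet score above 0.1 (4, of 375 nuclei) stayed unnamed, as did those that met none of these rules. Clusters of low depth also stayed unnamed where no marker of their class was among their leading genes. These thresholds were set after the data were seen. UMIs were summed per class, scaled to CPM, and given exact Poisson intervals; shares of nuclei were also taken after thinning to 1000 UMIs. A count of 0 was set to a floor of 3 counts in ratios, and a fold of 2 was the call. The scripts were tested on simulated data. Alternatives were presumed doublets kept, all genes open to clustering, resolution 1.0, each barcode set left out, thinning, a mean over nuclei, a scaling that sets the median log2 fold of all genes to 0, leaving out the PROX1 cluster, other minimums of UMIs, and reference classes left out of the mean (the neuronal ones, or the highest for each gene, both chosen after seeing the data). The text names every gene at least 2-fold apart and, within classes, the sub-cluster with the largest ratio of the genes at the head of that ranking. The members and lists were chosen with earlier results of these data known. In a reference annotation (T2T-MMU8v2.0) 17 of the genes overlap another gene, 6 a named one (FGF2, NRG2, FGF7, PDGFD, FGF22 and FGF13), and reads of such pairs may not be separable. Values of 1 of the genes and of 1 pathway partner are not reported here.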

Additional observations from a re-analysis of the deposited data

Results flagged for a closer look

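Neuregulin genes also appeared in nuclei that no named class holds. Unnamed cluster 14, of 32 nuclei, had 1746 UMIs of NRG1 at 9625 CPM (9179 to 10087), and the highest named class, excitatory neurons, stood at 639.8 CPM. NRG2 in the same cluster was at 369 CPM (286 to 469), and its highest named class, excitatory neurons, at 272 CPM. The cluster held RELN at 19272 CPM and TP73, a transcription factor gene of the p53 family, at 479.6 CPM, with the excitatory marker SLC17A7 and the inhibitory marker GAD1 at 16.5 CPM each. Unnamed cluster 9.0, of 578 nuclei with a median of 558 UMIs, had NRG1 at 883 CPM (794 to 979), beside neuronal RBFOX3 at 219 CPM, oligodendrocyte MBP at 457 CPM and astrocyte AQP4 at 268 CPM. These values come from nuclei outside every comparison.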

How the results depend on the processing

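Of 168 recomputed counts of genes, 21 moved by over 1.5 times. Of 802 recomputed folds of 68 results, 166 moved by more than their counting error, 34 of these by over 1.5 times, and none changed direction; folds of genes short of the minimum of UMIs are not among them. In excitatory against inhibitory neurons the number higher was 5 in place of 3 with no minimum of UMIs, and 3 to 5 when a barcode set was left out. In precursors against oligodendrocytes the number lower was 3 in place of 1 with no minimum, and the number higher 6 in place of 10 at a minimum of 200 UMIs. In mural against endothelial cells the number lower was 0 in place of 3 after thinning to 1000 UMIs. IGF1R, then short of the minimum of UMIs, was at 27.4 CPM in mural and 219 CPM in endothelial cells. The number lower was 6 with no minimum, 1 at a minimum of 200 and 1 without barcode set 1. IGF1R was short of the minimum whichever barcode set was left out, so its call was lost each time. The number higher was 5 in place of 1 with no minimum and 0 at a minimum of 200. In astrocytes the number higher was 11 in place of 7 with no minimum, and the number lower 4 in place of 11 with the neuronal classes left out of the mean, and 5 with the highest other class of each gene left out; both alternatives were chosen after seeing the data. In ependymal cells the number lower was 6 in place of 11 with presumed doublets kept, and the number higher 9 in place of 2 with no minimum. In microglia the number higher was 2 in place of 1 with presumed doublets kept, after thinning, without the neuronal classes and without the highest other class, and 10 with no minimum, and the number lower 4 in place of 7 without the highest other class. Apart from fewer genes meeting the minimum of UMIs, the cause was not tested. The 3 barcode sets carry no sample label, and depth limits the vascular classes and microglia, whose genes often rest on fewer than 50 UMIs. No paired analysis was possible because no label maps the barcodes to the numbered samples, so the nuclei form 1 pooled sample.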

Other observations

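Pathway partners showed further class differences, some of them in genes already named above. LRIG3, a relative of LRIG1, stood at 164 CPM in ependymal cells and at most 21.1 CPM in any other class, and LRIG2 at 387 CPM in ependymal cells. Both were at least 2-fold higher in ependymal cells than in the mean of the other classes. GAB2, an adaptor of receptor tyrosine kinases, stood at 1239.8 CPM in microglia, with oligodendrocytes next at 666 CPM, and GRB2 at 411 CPM in microglia and at most 155 CPM elsewhere. GAB1 stood at 1403 CPM in oligodendrocytes, 507 CPM in mural cells, 490.2 CPM in endothelial cells and 13.5 CPM in excitatory neurons. The binding protein gene IGFBP7 stood at 806 CPM in mural cells (705 to 917) and 653 CPM in endothelial cells (567 to 747), and GRB10, an adaptor of insulin and IGF1 receptors, at 59.8 CPM in mural and 422 CPM in endothelial cells.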
